A study of Mus musculus with 4 samples.

Results

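The genes described here are the ligands and receptors of the classical axon guidance systems: Eph receptors and ephrins, semaphorins with plexins and neuropilins, SLITs with ROBOs, and netrins with their receptors. They were chosen by gene name. Probes were taken whose name on the array begins with Epha, Ephb, Efna, Efnb, Sema, Plxn, Slit, Robo or Unc5 and continues as a family member, together with Nrp1, Nrp2, Ntn1, Ntn3, Ntn4, Dcc and Neo1. Robo4, an endothelial gene, was left out. This gave 99 of the 39429 probes and 68 of the 29876 genes named on the array. The netrin receptor genes Unc5a to Unc5d were counted although a letter and not a digit follows the stem, and Unc50 and Plxna4os1, which carry other products, were left out. Signal well above background was required in 3 of the 4 spots of a probe on all 4 arrays in at least 1 genotype. It was reached by 88 of the 99 probes and by 64 of the 68 genes, against 25591 probes and 19365 genes of the whole array. Robo3, Epha6, Unc5d and Ntn4 did not reach it in either genotype.

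Ureters were dissected from NMRI mouse embryos at E14.5, and total RNA was compared on 4 two-colour Agilent arrays. The mutants, called cDKO (conditional double knockout), carried Tbx18(cre/+) together with both Fgfr1(fl/fl) and Fgfr2(fl/fl), so that cre is made from the Tbx18 locus, which is active in the ureteric mesenchyme, and the floxed genes encode receptors for fibroblast growth factors. The controls were Fgfr1(fl/?);Fgfr2(fl/?), with no cre allele and with the second allele of each receptor gene unstated, so that heterozygosity at Tbx18 also separates the genotypes. Each array held cDKO and control RNA of the same sex label, female on replicates 1 and 4 and male on replicates 2 and 3, with Cy5 marking the cDKO RNA of replicates 1 and 3 and Cy3 that of replicates 2 and 4. Which animals or pools stand behind a replicate is not labelled. The p-values therefore rest on the spread among 4 paired extracts, which may in part be technical.

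Replicates 1 and 2 lay on slide 1 and replicates 3 and 4 on slide 2. Between 66.1% and 71.8% of spots were well above background in cDKO channels and between 64.9% and 72.6% in control channels, and no spot was saturated. Of the targeted genes, the brightest probe of Fgfr1 had a log2 ratio of cDKO over control of -0.40 ± 0.10 (SE, n = 4, adjusted p = 0.117) and that of Fgfr2 had 0.59 ± 0.07 (adjusted p = 0.036). Whether these probes lie inside the deleted parts was not tested. Tbx18 was at 0.26 ± 0.08 (adjusted p = 0.164). All 9 markers of ureteric mesenchyme and all 12 of urothelium passed the signal filter, and so did all 6 of smooth muscle, 10 of endothelium, 10 of neurons and 6 of nephron progenitors and kidney stroma. Some but not all markers of Schwann cells and neural crest passed it, 6 in number. The dissected tissue therefore held RNA of more than the ureteric mesenchyme. Many of the listed genes are also expressed in the ureter, so passing the filter does not show which other cell types were present. In such whole-tissue RNA, fewer cells of a type and less RNA per cell cannot be told apart.

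Axon guidance genes encode short-range and long-range cues that attract or repel growing axons, and the same ligands and receptors act on migrating cells, vessels and developing epithelia. Ephrins are membrane-bound and signal to Eph receptor tyrosine kinases on neighbouring cells, and the ephrins can signal backwards into their own cell. Secreted class 3 semaphorins bind neuropilins that pair with plexins, whereas most membrane-bound semaphorins bind plexins directly. SLITs bind ROBO receptors, and netrins bind DCC, neogenin and the UNC5 family. In the kidney and ureter, SLIT2 and ROBO2 are known for limiting where ureteric buds arise, and semaphorins and Eph signals take part in branching and in the joining of the urinary tract.

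The probes behind the 7 genes with the smallest p are shown by 30 of their 60 bases. Each result below is the signal of the whole probe and of no other part of the transcript. Intervals are those of the whole probe in build mm9, as the file headers give them, and the bases are those printed on the array, 5′ to 3′. Capitals mark the letters AATAAA, the usual polyadenylation hexamer, which was searched on the probe's own strand. Of these 7 probes 2 held it, as did 12 of the 88 probes of the guidance genes (13.6%) and 14.3% of all probes with signal.
Epha8, chr4:136485335-136485394, minus strand: acttgtgatgagAATAAAtactgtctcatc
Sema3c, chr5:17235981-17236040, plus strand: ttaccacatgagaatttaattagatgttga
Ntn3, chr17:24341753-24341812, minus strand: tcagttcagaaatagtgctctggccttctt
Efna5, chr17:62954177-62954236, minus strand: atgaaacaattcctcatggccctctctgcc
Sema5b, chr16:35664281-35664340, plus strand: ttattaattaaagatgatatccagtctcca
Plxna2, chr1:196642958-196643017, plus strand: ttttgcaagccaaggacacaatttgtactg
Sema4d, chr13:51796617-51796676, minus strand: gaaaagtacccaAATAAAccagaagcttta

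Among the 64 measured genes, 1 was higher in cDKO ureters and 0 were lower in the fit over all genes (limma, adjusted p under 0.05). Of all genes tested, 0.553% were called higher and 0.300% lower. The gene called was Epha8. At an unadjusted p under 0.05, 20 guidance genes lay higher and 1 lower, where 11.7% of all genes lay higher and 7.88% lower. The ratio was above 0 on all 4 arrays for 19 guidance genes and below 0 on all 4 arrays for 0, against 13.4% and 11.8% of all genes. In the mean of the arrays 50 of the 64 genes (78.1%) lay above 0, against 10195 of the 19365 genes (52.6%). The median log2 ratio of the guidance genes was 0.14, and that of all genes was 0.01. It was 0.17 for the 31 receptors and 0.12 for the 33 ligands. The genes share arrays and dissections, so these counts describe the set and carry no test. The count depended on single arrays: 2 guidance genes were called without replicate 2, 4 without replicate 3 and 4 without replicate 4. It moved more with the terms fitted and with the signal filter. With slide as a term 17 guidance genes were higher and 1 lower, and with a sex term or without the filter 0 were called. The slide term leaves 1 residual degree of freedom, and the calls of all genes rose with it too, to 7.92% higher and 4.42% lower. Shares of all genes were not counted for the other changed settings or without single arrays.

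**Figure D1:**
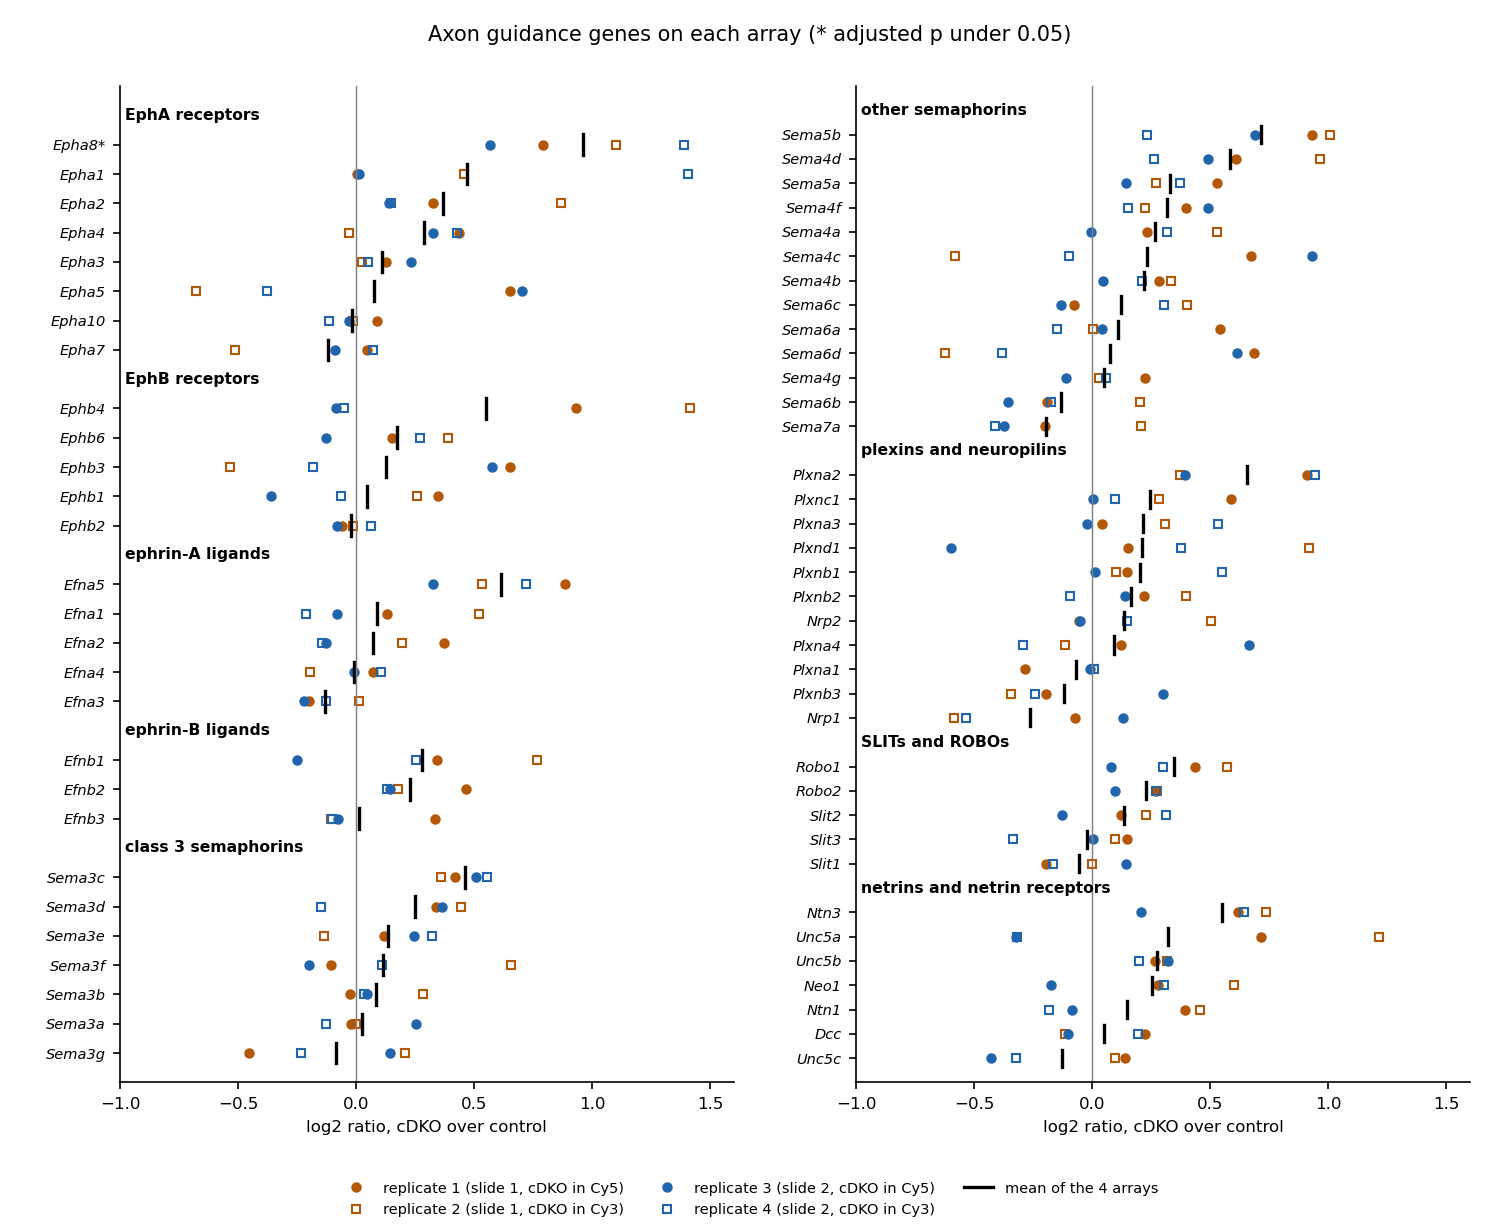
Log2 ratios of cDKO over control (horizontal axis) for the 64 measured genes, grouped by family; points are single arrays, coloured by slide and filled where cDKO was in Cy5, and the bar is the mean of the 4 arrays. Most bars lie right of 0, Epha8 alone is called, and the points of Ephb4 and Unc5a split by slide. The points of Epha5, Ephb3, Sema4c, Sema6d, Plxna4, Sema3f, Sema6c, Nrp2 and Plxna1 lie on opposite sides of 0 by dye.

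EphA receptors are receptor tyrosine kinases that mainly bind the ephrin-A ligands. Epha8 encodes such a receptor, known from midbrain axons of the mouse. Its log2 channel level was 11.05, 11.38, 11.77 and 11.78 in cDKO ureters and 10.26, 10.28, 11.20 and 10.39 in control ureters on replicates 1 to 4. Every cDKO channel lay above the control channel of the same array, although the control channel of replicate 3 lay above the cDKO channel of replicate 1. The log2 ratios were 0.79, 1.10, 0.57 and 1.39. Epha8 rose by 0.96 ± 0.09 on the log2 scale in cDKO ureters (SE, n = 4, 1.95-fold, 95% interval 0.75 to 1.17, adjusted p = 0.0214). Its mean ratio was 0.95 on slide 1 and 0.98 on slide 2. The array holds a single probe for it. A sex term ended the call (adjusted p = 0.0639), as did leaving out the signal filter (0.0832), while it held without any 1 array (0.017 to 0.0438). Neither change can move the mean of 0.96. The sex labels are balanced over the dyes, and the filter does not alter the ratio of a kept probe. The fit with a sex term has 1 residual degree of freedom. The difference of Epha8 between the sex labels had an unadjusted p of 0.217 (limma).

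**Figure D2:**
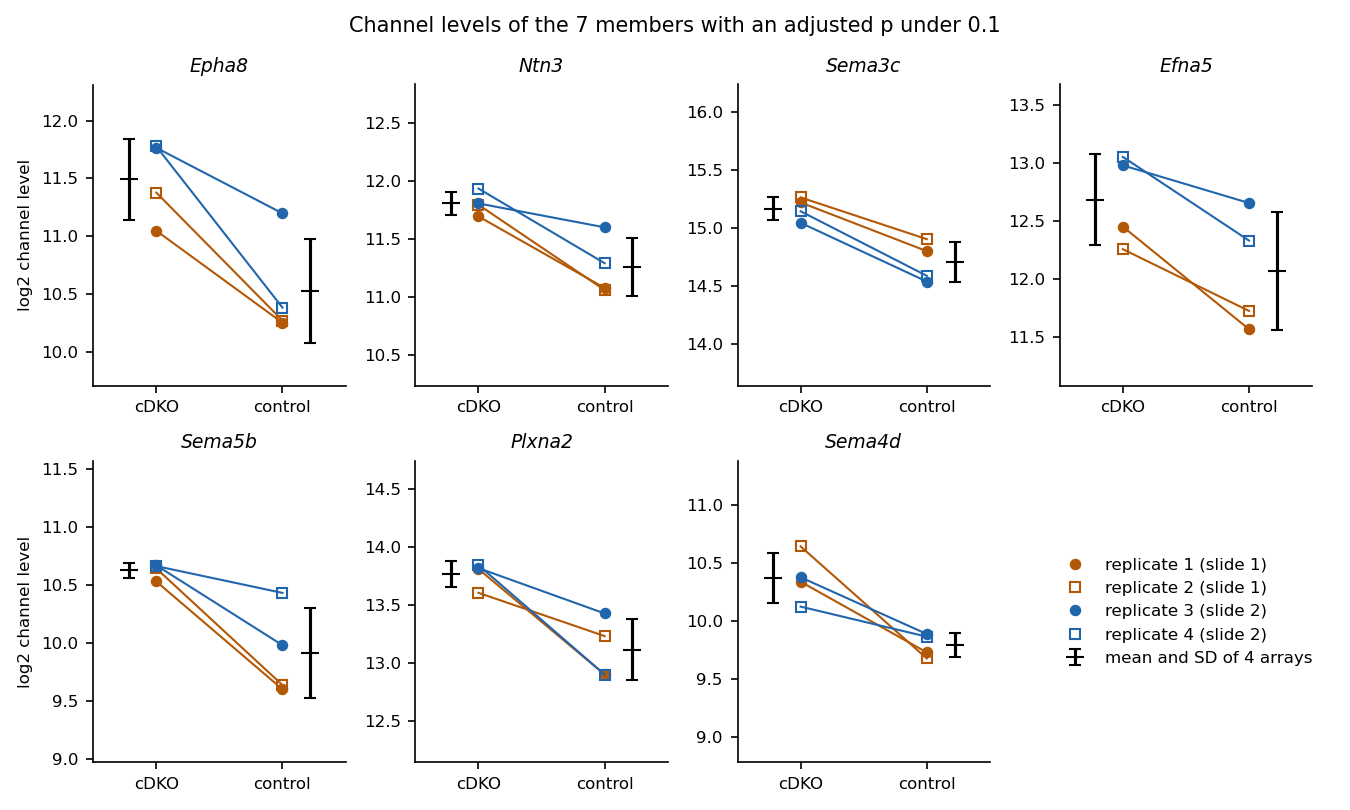
Log2 channel levels (vertical axis, each panel spanning the same range) in cDKO and control ureters for the 7 genes with an adjusted p under 0.1; lines join both channels of an array, and the side bars give the mean and SD of 4 arrays. Every line falls toward the control side, and only Epha8 passed the test over all genes.

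The other EphA receptors did not pass. Epha1, a receptor found in epithelia, had ratios of 0.00, 0.46, 0.01 and 1.41 (mean 0.47 ± 0.15, adjusted p = 0.171). Its ratio was near 0 on both arrays with cDKO in Cy5. Without replicate 2 its genotype term, fitted beside the dye, was 0.71 with an adjusted p just under the threshold. Replicate 4 was then the only array with cDKO in Cy3, so this value leans on that array. Epha4, which binds ligands of both ephrin classes, had 0.43, -0.03, 0.33 and 0.43 (0.29 ± 0.10, adjusted p = 0.18). Epha2, a receptor of epithelial cells, Epha3 and Epha5 lay at 0.37, 0.11 and 0.08, and Epha10 and Epha7 at -0.02 and -0.12.

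EphB receptors mainly bind the ephrin-B ligands. Of the 5 measured, 0 were called, and their means ran from -0.02 to 0.55. Ephb4, the receptor that marks venous endothelium, had the highest mean and the widest disagreement between slides. Its log2 level was 13.33, 13.56, 13.40 and 13.14 in cDKO ureters and 12.39, 12.14, 13.48 and 13.19 in control ureters. The cDKO channels thus stayed close together, and the control channels were lower on slide 1 than on slide 2. The ratios were 0.93 and 1.41 on slide 1 and -0.09 and -0.05 on slide 2 (0.55 ± 0.26, adjusted p = 0.297). A second Ephb4 probe, which reads an earlier part of the transcript, had 0.07, 0.18, -0.15 and 0.44. Ephb6, a receptor without kinase activity, had 0.15, 0.39, -0.13 and 0.27 (0.17 ± 0.08, adjusted p = 0.305). Ephb3 had 0.65, -0.54, 0.58 and -0.18 (0.13 ± 0.09, adjusted p = 0.462), positive where cDKO RNA was in Cy5 and negative where it was in Cy3. Ephb1 and Ephb2 averaged 0.05 and -0.02.

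Ephrin-A ligands are tethered to the membrane by a lipid anchor. Efna5, which encodes a ligand of several EphA receptors including EPHA8, had levels of 12.45, 12.26, 12.98 and 13.05 in cDKO ureters and 11.57, 11.72, 12.66 and 12.33 in control ureters. Its ratios were 0.88, 0.53, 0.32 and 0.72, above 0 on every array, and its mean of 0.62 ± 0.11 (1.53-fold, 95% interval 0.36 to 0.88) missed the threshold with an adjusted p of 0.0632. In both genotypes its levels were higher on slide 2 than on slide 1, and across arrays the genotypes overlap. The remaining ephrin-A genes were near 0: Efna1 averaged 0.09 ± 0.13 (0.13, 0.52, -0.08 and -0.21, adjusted p = 0.748) and Efna3 -0.13 ± 0.07 (-0.20, 0.01, -0.22 and -0.13, adjusted p = 0.368), with Efna2 at 0.07 and Efna4 at -0.01.

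Ephrin-B ligands span the membrane and also signal into the cell that carries them. Efnb2, an arterial ligand that binds EPHB4, had ratios of 0.47, 0.18, 0.14 and 0.13 (0.23 ± 0.08, adjusted p = 0.212). Efnb1 had 0.35, 0.77, -0.25 and 0.26 (0.28 ± 0.13, adjusted p = 0.295). Efnb3 had 0.33, -0.11, -0.08 and -0.10 (0.01 ± 0.09, adjusted p = 0.961). For Efnb2 and Efnb3, replicate 1 was the high array. The ephrin-B group therefore holds 0 calls.

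Class 3 semaphorins are secreted. Sema3c, whose product signals through neuropilins with plexins such as plexin A2 and plexin D1, had levels of 15.22, 15.26, 15.04 and 15.14 in cDKO ureters and 14.80, 14.90, 14.54 and 14.59 in control ureters. The levels of the genotypes do not overlap, and its ratios of 0.42, 0.36, 0.51 and 0.56 lay close together. The mean of 0.46 ± 0.08 (1.38-fold, 95% interval 0.28 to 0.64) had an adjusted p of 0.057 and did not pass. A second Sema3c probe averaged 0.29. Sema3d had 0.34, 0.45, 0.36 and -0.15 (0.25 ± 0.11, adjusted p = 0.272), and Sema3e, a ligand of plexin D1, had 0.12, -0.14, 0.24 and 0.32 (0.14 ± 0.10, adjusted p = 0.483). Sema3a, Sema3b, Sema3f and Sema3g averaged between -0.08 and 0.12.

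The other semaphorins are bound to the membrane. Of 13 measured, 11 averaged above 0, where 52.6% of all genes did, and 0 were called. Sema5b, a transmembrane semaphorin with thrombospondin repeats, had levels of 10.53, 10.64, 10.67 and 10.66 in cDKO ureters and 9.60, 9.64, 9.98 and 10.43 in control ureters, which do not overlap. Its ratios were 0.93, 1.01, 0.69 and 0.23 (0.71 ± 0.13, 1.64-fold, 95% interval 0.40 to 1.03, adjusted p = 0.0676). Its 3 probes averaged 0.71, 0.54 and 0.29, all above 0. Sema4d, whose product binds plexin B1, had levels of 10.34, 10.64, 10.38 and 10.12 in cDKO ureters and 9.73, 9.68, 9.89 and 9.86 in control ureters, which do not overlap. Its ratios were 0.61, 0.97, 0.49 and 0.26 (0.58 ± 0.12, 95% interval 0.29 to 0.87, adjusted p = 0.0869). A second Sema4d probe, at an earlier position in the transcript, averaged 0.01. It was dim, with mean levels of 7.29 in cDKO and 7.27 in control ureters, against 10.37 and 9.79 for the first probe. The 2 probes thus differ in ratio, but the dim probe is a weak check on the bright one. Sema4f had 0.40, 0.22, 0.49 and 0.15 (0.32 ± 0.07, adjusted p = 0.102). Sema5a, Sema4a, Sema4b and Sema4c averaged 0.33, 0.27, 0.22 and 0.23. Sema6a, Sema6c, Sema6d and Sema4g averaged between 0.05 and 0.12, and Sema6b -0.13. The lowest of the group was Sema7a, the lipid-anchored semaphorin, at -0.19 (adjusted p = 0.393).

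Plexins and neuropilins are the receptors and co-receptors of the semaphorins. Plxna2, a receptor subunit for secreted and membrane-bound semaphorins, had levels of 13.81, 13.60, 13.82 and 13.84 in cDKO ureters and 12.90, 13.23, 13.43 and 12.90 in control ureters, which do not overlap. Its ratios were 0.91, 0.37, 0.39 and 0.94, and its mean of 0.65 ± 0.13 (1.57-fold, 95% interval 0.35 to 0.96, adjusted p = 0.0759) did not pass. Nrp1, the neuropilin that also binds vascular endothelial growth factor, had the lowest mean of the 64 genes, with ratios of -0.07, -0.58, 0.13 and -0.54 (-0.27 ± 0.08, 95% interval -0.45 to -0.08, adjusted p = 0.146). Its low arrays were those with cDKO in Cy3. Plxna3 had 0.04, 0.31, -0.02 and 0.53 (0.21 ± 0.08, adjusted p = 0.209). Plxnd1 reached from -0.60 on replicate 3 to 0.92 on replicate 2, and its second probe averaged -0.13. The remaining plexins and Nrp2 averaged between -0.12 and 0.24. Plxnb3 was well above background on 3 of 4 arrays in cDKO ureters and on 4 of 4 in control ureters.

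SLITs are secreted repellents and ROBOs are their receptors. Robo1 had ratios of 0.44, 0.57, 0.08 and 0.30 (0.35 ± 0.09, adjusted p = 0.134) and a second, dimmer probe at -0.04. Robo2 had 0.27, 0.27, 0.10 and 0.27 (0.23 ± 0.08, adjusted p = 0.177), and its 3 probes ran from -0.09 to 0.23. Slit2 had 0.12, 0.23, -0.13 and 0.31 (0.13 ± 0.08, adjusted p = 0.404), with Slit3 at -0.02 and Slit1 at -0.06. Robo3 was below the signal filter.

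Netrins are secreted proteins related to laminins. Ntn3 had levels of 11.70, 11.80, 11.81 and 11.94 in cDKO ureters and 11.08, 11.06, 11.60 and 11.29 in control ureters, which do not overlap. Its ratios were 0.62, 0.73, 0.21 and 0.64 (0.55 ± 0.09, 1.46-fold, 95% interval 0.33 to 0.77, adjusted p = 0.057), and it did not pass. Unc5b, a netrin receptor known from vessels, had 0.27, 0.31, 0.32 and 0.20 (0.27 ± 0.07, adjusted p = 0.128), the smallest spread in its family. Neo1, the neogenin gene, had 0.28, 0.60, -0.18 and 0.30 (0.25 ± 0.10, adjusted p = 0.249). Ntn1 averaged 0.15 and Unc5c -0.13. Unc5a split by slide as Ephb4 did: its levels were 9.31, 9.74, 9.60 and 9.41 in cDKO ureters and 8.60, 8.53, 9.93 and 9.73 in control ureters, with ratios of 0.71, 1.21, -0.33 and -0.32.

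The value printed for Dcc, 0.05, comes from a probe that cannot be taken as a reading of that gene. Of its 60 bases, 51 repeat the unit GAA, and the header places the probe on chromosome 7. The other probes named Dcc did not reach the signal filter. Neither did Epha6, Unc5d, Ntn4 and both probes of Robo3, so that these 5 genes have no usable value, although the Dcc probe is counted among the 64.

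Some ratios followed the dye. The dye term, the log2 ratio of Cy5 over Cy3 that does not depend on genotype, had an unadjusted p under 0.05 for 12 of the 64 genes and for 8.80% of all genes, and passed after adjustment for 0 of the 64. Of these 12 probes 4 hold a simple repeat and 8 do not. Among the 8, the dye term was -0.46 for Epha1, -0.44 for Plxnd1, 0.30 for Plxna4, 0.29 for Nrp1 and -0.28 for Epha8. The sign of the ratio changed with the dye on all 4 arrays for 9 genes, namely the 4 with a GT repeat and Plxna4, Sema3f, Sema6c, Nrp2 and Plxna1, whose probes hold none. How many of all genes split in this way was not counted, so the 9 are no result about the guidance genes. The dye term had an unadjusted p (limma) under 0.05 for Plxna4, Sema3f and Sema6c, but of 0.066 for Nrp2 and 0.375 for Plxna1. Probes for Epha5, Ephb3, Sema4c and Sema6d hold a run of GT of 20 to 33 bases. It is shown here in capitals within 30 bases of each probe, cut to that window for Ephb3, because these 4 genes had the highest dye terms of the 64.
Epha5, chr5:84487348-84487407, minus strand: gaaatTGTGTGTGTGTGTGTGTGTGcgtgc
Ephb3, chr16:21223165-21223224, plus strand: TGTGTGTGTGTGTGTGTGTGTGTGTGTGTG
Sema4c, chr1:36605998-36606057, minus strand: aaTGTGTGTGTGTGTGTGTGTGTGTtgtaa
Sema6d, chr2:124491609-124491668, plus strand: agaggggcgaGTGTGTGTGTGTGTGTGTGT

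Epha5 had ratios of 0.65, -0.68, 0.70 and -0.38, Sema4c 0.67, -0.58, 0.93 and -0.10, and Sema6d 0.68, -0.62, 0.61 and -0.38. All 3, like Ephb3, were high with cDKO in Cy5 and low with cDKO in Cy3. The dye term was 0.60, 0.49, 0.57 and 0.58 for Epha5, Ephb3, Sema4c and Sema6d. Across the whole array, 122 kept probes hold a run of GT or CA of 14 bases or more, and their median dye term was 0.55, against -0.01 for the 25318 kept probes without a simple repeat. The dye term exceeded 0.3 in 70.5% of the first and in 1.32% of the second. Other probes of the same genes had dye terms near 0, at -0.01 and 0.00 for Epha5 and 0.00 for Sema6d. The dyes are swapped within each slide, so a constant dye term cancels in the mean ratio. Epha5 averaged 0.08 over its repeat probe and 0.01 and -0.11 over the others.

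**Figure D3:**
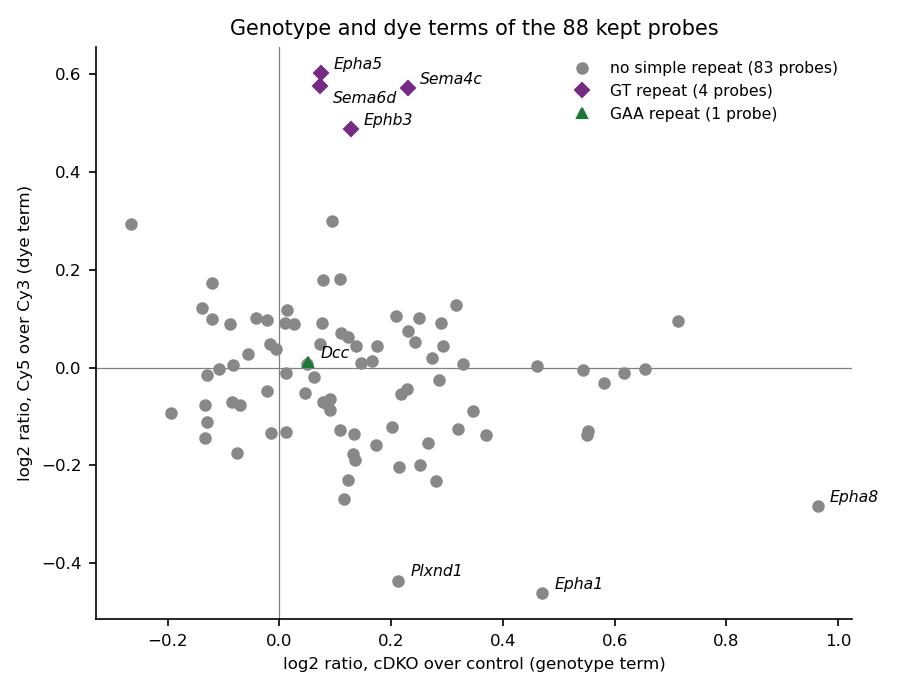
Genotype term (log2 ratio of cDKO over control, horizontal axis) against dye term (log2 ratio of Cy5 over Cy3, vertical axis) for the 88 kept probes of the guidance genes. The 4 GT repeat probes lie apart at dye terms of 0.49 to 0.60, while the GAA repeat probe named Dcc lies at 0.01.

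The ratios of the guidance genes also differed by slide. The median ratio over the 64 genes was 0.23 on slide 1 and 0.06 on slide 2, whereas that of all genes was 0.00 and 0.01. On slide 1, 52 of the 64 genes lay above 0, and on slide 2, 41 did, against 9780 and 10105 of all 19365 genes. A difference of the cDKO effect between slides passed for 2 of the 64 genes, where 0.790% of all genes passed. These were Ephb4 (slide 1 minus slide 2, 1.24 ± 0.16, adjusted p = 0.0144) and Unc5a (1.29 ± 0.16, adjusted p = 0.0136). Per the file headers the slides also differ in scan and scanner, which cannot be told apart from the slide. With slide as a term the fit has 1 residual degree of freedom, and 17 guidance genes were higher and 1, Nrp1, lower, where 7.92% of all genes were higher and 4.42% lower. No difference between the sex labels passed for any of the 64 genes (lowest adjusted p = 1.00), and 2 had an unadjusted p under 0.05.

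**Figure D4:**
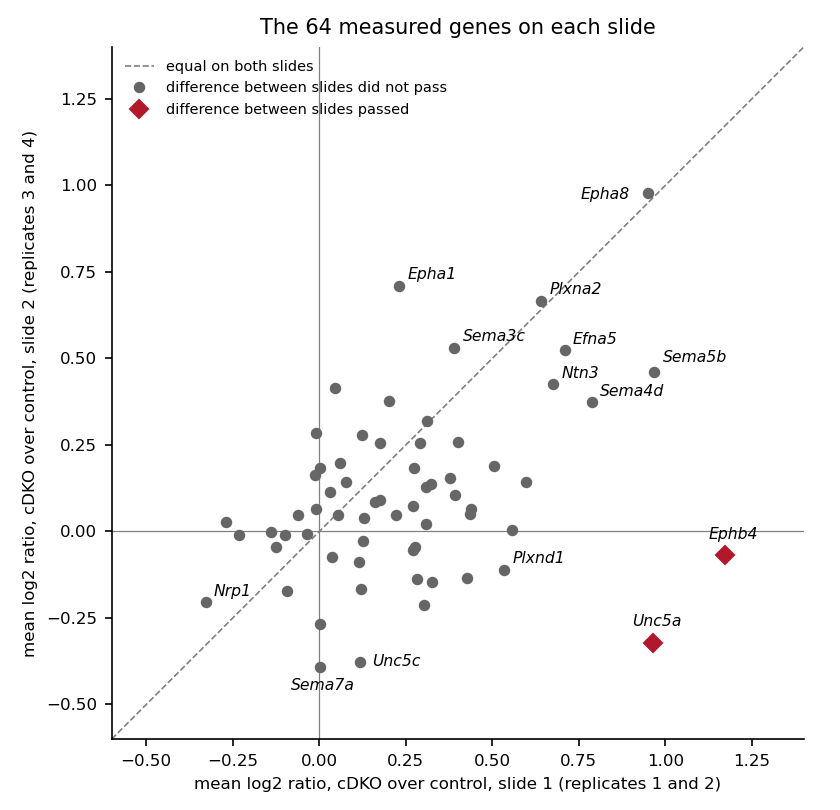
Mean log2 ratio of cDKO over control on slide 1 (horizontal axis) against that on slide 2 (vertical axis) for the 64 measured genes, with equality as a dashed line. Epha8, Plxna2 and Sema3c lie near the line, and Ephb4 and Unc5a, whose difference between slides passed the test, lie far below it.

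Several probes were kept for 20 of the 64 genes. In 13 of these all probes lay on the same side of 0, and the median distance between the lowest and the highest probe was 0.16 on the log2 scale. The widest distance was that of Sema4d, whose second probe was dim.

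Genes that act beside the receptors held no call. Of 36 effectors, co-receptors and other cues, 34 were measured and 0 passed, with 25 above 0, 9 below 0 and a median of 0.13. Of all genes 52.6% lay above 0, with a median of 0.01, and 0.553% were called higher and 0.300% lower. At an unadjusted p under 0.05, 10 lay higher and 2 lower, where 11.7% of all genes lay higher and 7.88% lower. The smallest p belonged to Dpysl4 (0.37 ± 0.09, adjusted p = 0.103), Srgap1 (0.43 ± 0.11, adjusted p = 0.114) and Dpysl2 (0.38 ± 0.10, adjusted p = 0.119). Dpysl2 and Dpysl4 encode collapsin response mediator proteins of the semaphorin pathway, and Srgap1 encodes a GTPase-activating protein that binds ROBO receptors.

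Markers of the tissue's cell types mostly did not pass the test, and their values are given as a description. For comparison, 52.6% of all genes lay above 0 (median 0.01), and 0.553% were called higher and 0.300% lower. Ureteric mesenchyme markers lay above 0 for 8 of 9 genes (median 0.38), and their mean level per array was 13.31 to 13.51 in cDKO ureters and 12.85 to 13.30 in control ureters. Endothelial markers lay below 0 for 9 of 10 (median -0.31), at 11.69 to 11.88 in cDKO ureters and 11.93 to 12.29 in control ureters. Urothelial markers lay below 0 for 9 of 12 (median -0.30), at 11.40 to 11.85 in cDKO ureters and 11.89 to 12.13 in control ureters. The Schwann and neural crest list lay below 0 for 6 of 6 measured markers (median -0.28), at 10.70 to 11.11 in cDKO ureters and 11.01 to 11.20 in control ureters. Neuronal markers had array medians of 0.44, -0.79, 1.30 and -0.59, positive where cDKO was in Cy5, and mean levels of 9.69 to 10.86 in cDKO ureters and 9.75 to 10.41 in control ureters. Smooth muscle markers lay above 0 for 5 of 6 (median 0.14), at 9.90 to 11.17 in cDKO ureters and 9.80 to 10.96 in control ureters. Markers of nephron progenitors and kidney stroma lay above 0 for 6 of 6 (median 0.19), at 11.17 to 11.39 in cDKO ureters and 10.71 to 11.30 in control ureters. Of the markers in these lists, Ptch1, the hedgehog receptor gene, rose (0.55 ± 0.08, adjusted p = 0.0401), and the uroplakin gene Upk1b (-1.43 ± 0.20, adjusted p = 0.0401) and the endothelial gene Emcn (-0.58 ± 0.07, adjusted p = 0.0363) fell. The part of these cell types in the guidance gene ratios was not tested.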

How the data were processed

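The deposited scanner files give mean and local background intensity per spot, and per the file headers also flags and a log10 ratio of red over green from Agilent Feature Extraction 10.7.3.1, with mm9 probe positions. The authors' deposited value table holds a signed fold per probe, used here as a score for an alternative only; how it was centred is not stated. Mean intensity was corrected with normexp (offset 50) and loess (span 0.3), and unmarked spots were averaged. The brightest kept probe stood for a gene. Probes were named through RefSeq accessions (28328), by current symbol (3400) or by synonym (242), and 7459 kept the name in the file. Levels are log2 intensity after quantile scaling between arrays. R 4.3.3 and limma 3.58.1 (lmFit, eBayes) fitted genotype and dye, two-sided, with Benjamini-Hochberg adjustment over 19365 genes, 2 residual and 4.52 prior degrees of freedom. The fit was also run on simulated ratios with independent errors and no slide effect, so that run says nothing about genes whose ratios differ by slide. Arrays pair the genotypes, so no separate block was added. Members and lists were chosen with earlier results of these data known. Values on every array are given for called genes and for up to 3 genes per family with the smallest p. Ephb4 and Unc5a (slide difference) and the repeat-probe genes were singled out after their values were seen. Number of arrays limits the precision.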

Additional observations from a re-analysis of the deposited data

Results flagged for a closer look

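Of the 27 genes with values given on every array, 3 had 1 array far from the other 3 (the gap to the nearest array measured against the range of 4). Chance marks about 1 in 20 such groups. Efnb2 stood at 0.47 and Efnb3 at 0.33, both on replicate 1, and Robo2 stood at 0.10 on replicate 3, all as log2 ratios of cDKO over control. None of the 3 was called with all arrays.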

How the results depend on the processing

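The count of called guidance genes, 1 with all arrays, was 4 with median centring, 2 with all spots above background in both channels, 3 with no dye term, 18 with a slide term and 7 within slide 1. It was 0 with no signal filter, with a sex term, within slide 2 and on the female-labelled or male-labelled arrays alone. Leaving out each array gave 1 to 4. The cause of these moves was not tested. With the slide term 7.92% of all genes were called higher and 4.42% lower. Shares of all genes in the other changed settings were not counted, so these counts cannot be set against the whole array. Epha8 stayed above 0 in every setting, at an adjusted p of 0.387 within slide 2, 0.148 on female-labelled and 0.439 on male-labelled arrays. The median ran from 0.06 within slide 2 to 0.23 within slide 1. The settings that use part of the data share the same 4 arrays, so the median was not checked on other data.

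Among single genes, 10 values changed sign, all of genes that were not called. Efnb3 was -0.0098 with the scanner's log ratio, -0.016 with the authors' deposited table, -0.088 within slide 2 and -0.091 on male-labelled arrays, and ran from -0.090 to 0.12 when each array was left out. Efna1 was -0.15 within slide 2 and -0.041 on female-labelled arrays, and ran from -0.094 to 0.27 when each array was left out. Sema3e was -0.010 within slide 1 and Ephb4 -0.069 within slide 2. The other 414 values kept direction and call, 30 gained a call and 5 lost one. Changing the signal filter, leaving out the dye term or adding a sex or slide term left these ratios unchanged. In those settings no sign could change, so a kept direction there is no sign of stability. Reading the naming rule to the letter, or leaving out genes with repeat probes (both chosen after seeing the data), kept the count at 1. No paired analysis was possible beyond the within-array ratio because each array is already a pair of genotypes.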

Other observations

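Genes whose names resemble the guidance genes were measured on the same arrays. Unc50, a Golgi protein gene, averaged -0.14 ± 0.08 on the log2 scale of cDKO over control (adjusted p = 0.378, n = 4 arrays, limma). Unc5cl, a gene named for its likeness to UNC5C, had ratios of 0.26, 0.25, 0.23 and 0.21 (adjusted p = 0.159). Robo4 had -0.17, 0.45, -0.65 and 0.03 (adjusted p = 0.724).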
